A study of Drosophila melanogaster with 4 samples.

Results

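The regions described here are the sequences 2LHet, 3LHet, 3RHet and XHet of FlyBase release 5, the scaffolds of assembled heterochromatin that were assigned to the left arm of chromosome 2, to both arms of chromosome 3 and to X. They were tiled from their first base into 5-kb windows, which gave 1131 windows of 33750 in the whole release 5 sequence. The last window of each scaffold is shorter, and its shares are of its own length. 3LHet holds 512 of the windows (2.56 Mb), 3RHet 504 (2.52 Mb), 2LHet 74 (369 kb) and XHet 41 (204 kb). Membership was set by position alone, so no measured value chose the windows.

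The mark is dimethylation of lysine 9 on histone H3 (H3K9me2), mapped by chromatin immunoprecipitation and sequencing (ChIP-seq) with an antibody numbered 2 in the labels. All 4 samples came from S2-DRSC, a Drosophila melanogaster cell line that was established from embryos at a late stage and carries the label male. The cells were fixed in 1.8% formaldehyde, and no treatment is stated. There were 2 H3K9me2 ChIP samples, replicates 1 and 2, and 2 inputs, each named in the labels as the input of 1 ChIP list. The inputs have no lists of their own here. Separate cultures are not stated for the ChIP samples, whose spread may therefore be technical. S2-DRSC is a single cultured line, so the maps describe that line and not a tissue.

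Heterochromatin is the condensed, repeat-rich chromatin that surrounds centromeres. Methyltransferases place methyl groups on lysine 9 of histone H3, and Heterochromatin Protein 1 binds the methylated tail through its chromodomain, which keeps most transposons silent. Genes that lie inside fly heterochromatin are embedded among such repeats, and several of them need that surrounding to be expressed normally. The Het scaffolds are sequences of this chromatin that were assembled and assigned to a chromosome, separate from the arm sequences. Their distance from the arm sequences is not stated here.

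The deposited lists give enriched clusters with a start, an end and a score. A block is used here for an unbroken run of bases in clusters of a list, and a gap for the run of bases between neighbouring blocks. No clusters on these scaffolds overlapped or touched within a list, so each block is 1 deposited cluster. Read depth is unknown, because the lists hold no read counts, and a base outside a cluster is therefore not shown to lack the mark. No list of another group exists, so the values were compared between replicates and between regions as descriptions, and no test was run.

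Most of these windows were marked in both replicates, and the marked ones were interrupted by stretches with no cluster at all. At least 50% of the bases lay in clusters in 682 windows (60.3%) of replicate 1 and in 741 (65.5%) of replicate 2, a mean of 62.9 ± 3.69% (SD, n = 2). The same threshold was passed by 14.8% and 17.9% of all windows of the 14 release 5 sequences in replicates 1 and 2. Besides the long arms, these include the 4 scaffolds themselves, chromosome 4, 2RHet and the unplaced U and Uextra. 2RHet is not described apart here. Clusters held every base of 323 windows (28.6%) in replicate 1 and of 406 (35.9%) in replicate 2, against 6.92% and 8.78% of windows over all sequences. No base lay in a cluster in 254 windows (22.5%) of replicate 1 and 220 (19.5%) of replicate 2, against 74.9% and 69.2% over all sequences. The remaining 554 and 505 windows were partly covered. The shares of empty windows, of fully covered ones and of those at or above 50% thus each differed from the shares over the whole sequence by more than the replicates differed, although this difference was not tested. The combined list, which the authors made for the whole series, had 727 windows (64.3%) at or above 50%, against 16.9% over all sequences. It left 226 windows (19.98%) empty, against 71.4%, and covered every base of 390 (34.5%), against 8.24%.

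**Figure D1:**
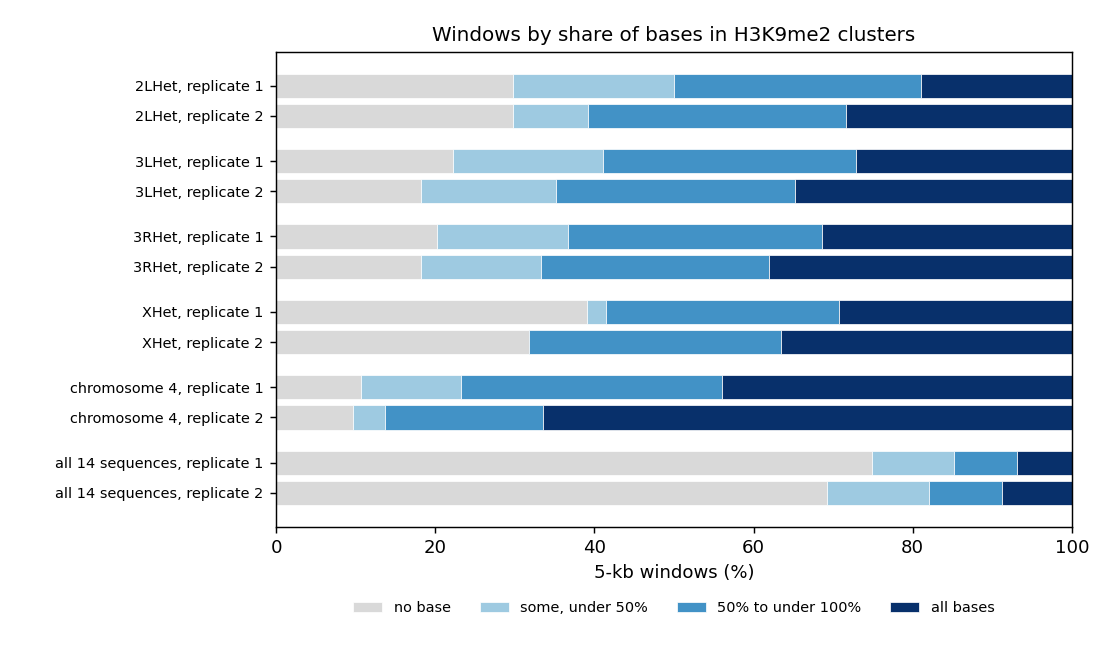
Share of 5-kb windows (%, horizontal axis) with no base, some but under 50%, 50% to under 100% and all of their bases in H3K9me2 clusters, for each scaffold, chromosome 4 and all 14 sequences, in replicates 1 and 2. The scaffolds have between 50% and 68.3% of windows at or above 50% coverage, chromosome 4 has 76.8% and 86.3%, and all sequences have 14.8% and 17.9%.

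The scaffolds differed in how their windows divided between these classes. On 3RHet, 319 of 504 windows (63.3%) in replicate 1 and 336 (66.7%) in replicate 2 reached 50% coverage. On 3LHet 302 of 512 windows (59.0%) and 332 (64.8%) did so. On 2LHet the numbers were 37 of 74 (50%) in replicate 1 and 45 (60.8%) in replicate 2, the widest step between replicates among the scaffolds. On XHet they were 24 of 41 (58.5%) and 28 (68.3%). The ranges of the 2 replicates overlapped between all of the scaffolds except 2LHet and 3RHet, so the other orders are within the spread between samples. Empty windows were commoner on the short scaffolds. They made up 29.7% of 2LHet in both replicates and 39.0% and 31.7% of XHet in replicates 1 and 2. On 3LHet they were 22.3% and 18.2%, and on 3RHet 20.2% and 18.3%. XHet also had almost no thinly marked window, with 1 window in replicate 1 and 0 in replicate 2 holding some covered bases but under 50%.

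Both replicates placed most marked and unmarked windows at the same positions. Of the 1131 windows, 676 were at or above 50% in both, 384 were below it in both, 65 passed in replicate 2 only and 6 in replicate 1 only. The same side of the threshold was thus taken by 93.7% of windows, a little fewer than the 96.04% over all 14 sequences, where most windows were below it in both replicates. Passing in both replicates was seen in 14.4% of windows of all sequences. A window without any covered base in both replicates was found 217 times (19.2%), against 68.1% over all sequences, and a window covered at every base in both 314 times (27.8%), against 6.69%. Across the 1131 windows the covered shares of the replicates had a Pearson correlation of 0.951, with 0.958 on 3RHet, 0.949 on 3LHet, 0.948 on 2LHet and 0.896 on XHet. These correlations are across neighbouring windows that often share a cluster, and they are given as a description.

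Where the replicates differed, replicate 2 was usually the higher one. Its share was higher in 510 windows, that of replicate 1 in 88, and 533 windows were equal. The difference was 20 percentage points or more in favour of replicate 2 in 131 windows and in favour of replicate 1 in 5. Over all 33750 windows of the 14 sequences these numbers were 3030 and 391. There replicate 2 was higher in 6994 windows, replicate 1 in 1504, and 25252 were equal. Over all bases of the scaffolds, 3.23 Mb lay in clusters of both replicates, 352 kb in those of replicate 2 alone and 43.7 kb in those of replicate 1 alone. Replicate 2 also covered more of the whole sequence, 19.1% against 15.5% in replicate 1.

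The 65 windows that passed 50% only in replicate 2 were mostly partly marked in replicate 1 as well. Their median share was 39.9% in replicate 1 and 70.6% in replicate 2, and 43 of them passed in the combined list. Over all 14 sequences 1199 of 33750 windows passed only in replicate 2. Their medians were 31.3% and 66.4%, and 620 passed in the combined list. On the scaffolds 5 windows were empty in replicate 1 and at or above 50% in replicate 2, and none were the other way round. Of the 5, 3 were on XHet and 2 on 3LHet. Over all 33750 windows there were 259 such windows, and 25 the other way round. The largest difference on the scaffolds was that of 3RHet at 405001 to 410000, with 9.08% of bases in clusters in replicate 1 and 95.1% in replicate 2. On 2LHet the window from 30001 to 35000 was covered at 14.9% and 97.6%. These and the other windows named for their difference were chosen after their values were seen.

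**Figure D2:**
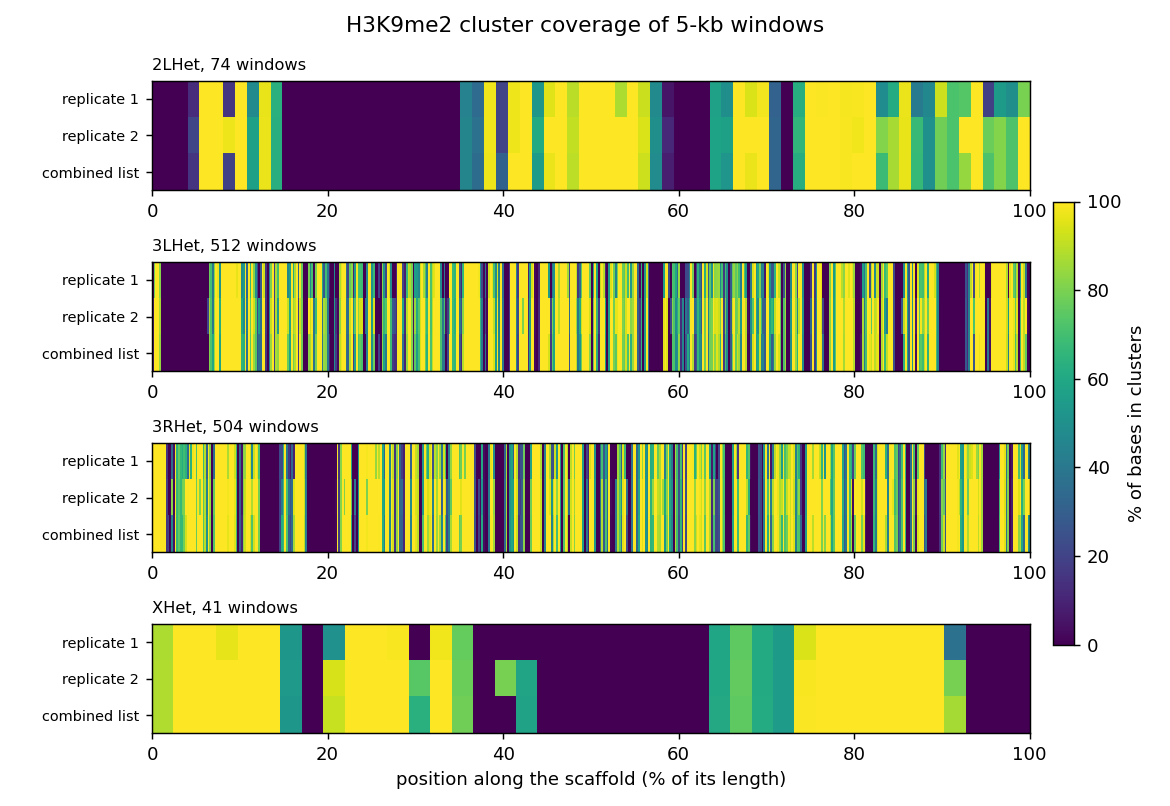
Share of bases in H3K9me2 clusters (colour, 0 to 100%) in each 5-kb window along the 4 scaffolds (horizontal axis, % of scaffold length), with a row each for replicate 1, replicate 2 and the combined list. Long dark stretches stand at the same places in all rows, such as the 79.6 kb run on 2LHet and the 137 kb run near the start of 3LHet.

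Marked DNA came in many blocks of a few kilobases. Over the 4 scaffolds there were 432 blocks in replicate 1, with a median length of 5123 bp, and 388 in replicate 2, with a median of 6000 bp. The mean of the medians was 5562 ± 620 bp (SD, n = 2). On the other 10 sequences the median block was 2562 bp in replicate 1 and 2438 bp in replicate 2, so the scaffolds' blocks were longer in both samples by more than the replicates differed. Blocks in the 1 Mb at the centromere end of 2L and 3L were longer still. For replicates 1 and 2 their medians were 7395.5 and 9226 bp on 2L, and 7660 and 7608 bp on 3L. Those of 3R (3527 and 3269 bp) and X (3571.5 and 4902 bp) were shorter than on the scaffolds. The middle 50% of blocks measured 2383 to 10192 bp in replicate 1, and 2808 to 12366 bp in replicate 2. Long blocks held much of the covered sequence even so. Blocks of at least 10 kb numbered 112 in replicate 1 and 127 in replicate 2, and they held 59.96% and 68.8% of the covered bases. Over all 14 sequences such blocks held 51.3% and 52.9%. Blocks of at least 20 kb numbered 27 and 36, and they held 24.4% and 32.1% of the covered bases. Over all 14 sequences blocks of that length held 28.6% and 31.3%, so the scaffolds were lower in replicate 1 and close in replicate 2.

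Block lengths were alike on 3LHet, 3RHet and 2LHet, and the few blocks of XHet had the highest medians. The median was 4954 bp in replicate 1 and 5514 bp in replicate 2 on 3LHet, 5109 and 6299 bp on 3RHet, and 5126.5 and 6435 bp on 2LHet. XHet had 8 blocks with a median of 11127 bp in replicate 1 and 9 blocks with a median of 6794 bp in replicate 2. A median of so few blocks shifts with a single block. The longest block of each scaffold was 49.2 kb in replicate 1 and 61.9 kb in replicate 2 on 3LHet, 40.7 and 43.8 kb on 3RHet, 32.8 and 37.0 kb on XHet, and 18.6 and 29.97 kb on 2LHet.

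Gaps between blocks were mostly short, and a small number of long ones held most of the unmarked sequence. The median gap was 2034.5 bp over 428 gaps in replicate 1 and 2167.5 bp over 384 gaps in replicate 2, and 48.8% and 48.2% of gaps were under 2 kb. Gaps of at least 10 kb numbered 53 in replicate 1 and 41 in replicate 2. They held 58.1% and 56.4% of all uncovered bases. Over all 14 sequences such gaps held 93.7% and 92.04%, so long gaps held a smaller share of uncovered bases on the scaffolds. Over all sequences the median gap was 5562 and 5945 bp, and 30.985% and 28.9% of gaps were under 2 kb. By scaffold the median gap was 2470 and 2243.5 bp on 3LHet, 1962.5 and 1829.5 bp on 3RHet, 1699 and 1754.5 bp on 2LHet, and 3191 and 2722.5 bp on XHet, for replicates 1 and 2.

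Gaps of 1 replicate that the other covered at every base were mostly short. A long gap can hardly meet that measure, so it does not show where the replicates disagreed most. Of 428 gaps of replicate 1, 102 (23.8%) were fully covered in replicate 2, and 97 of those 102 were under 2 kb. The longest gap closed in this way was 2602 bp. In the other direction 15 of 384 gaps of replicate 2 (3.91%) were fully covered in replicate 1, the longest of them 976 bp. No gap of at least 10 kb in either replicate was fully covered in the other. Long gaps could still be divided differently. The replicate 1 gap at 73811 to 132040 on XHet, for example, held blocks of replicate 2. Accordingly 81 blocks of replicate 2 each contained or met 2 or more blocks of replicate 1, whereas 14 blocks of replicate 1 met 2 or more of replicate 2. Of the replicate 1 blocks, 290 of 432 (67.1%) lay wholly inside a block of replicate 2, and 15 of 388 replicate 2 blocks (3.87%) lay wholly inside one of replicate 1.

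Blocks found in a single replicate were few and short. In replicate 1, 3 of 432 blocks met no base of a replicate 2 block, and the longest was 1094 bp. In replicate 2, 46 of 388 met no base of a replicate 1 block. Their median length was 1966 bp, against 7280.5 bp for those that did, and together they covered 82.1 kb. By scaffold they numbered 26 on 3LHet, 15 on 3RHet, 3 on XHet and 2 on 2LHet. Their median score in the replicate 2 list, 3.14, was close to the median of 3.20 for all replicate 2 clusters on the scaffolds. On chromosome 4, 1 of 97 blocks of replicate 1 and 4 of 48 of replicate 2 met no block of the other replicate. Such blocks were not counted over all 14 sequences. Of the bases in clusters of either replicate, 89.1% lay in both on the scaffolds, against 74.3% over all 14 sequences.

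**Figure D3:**
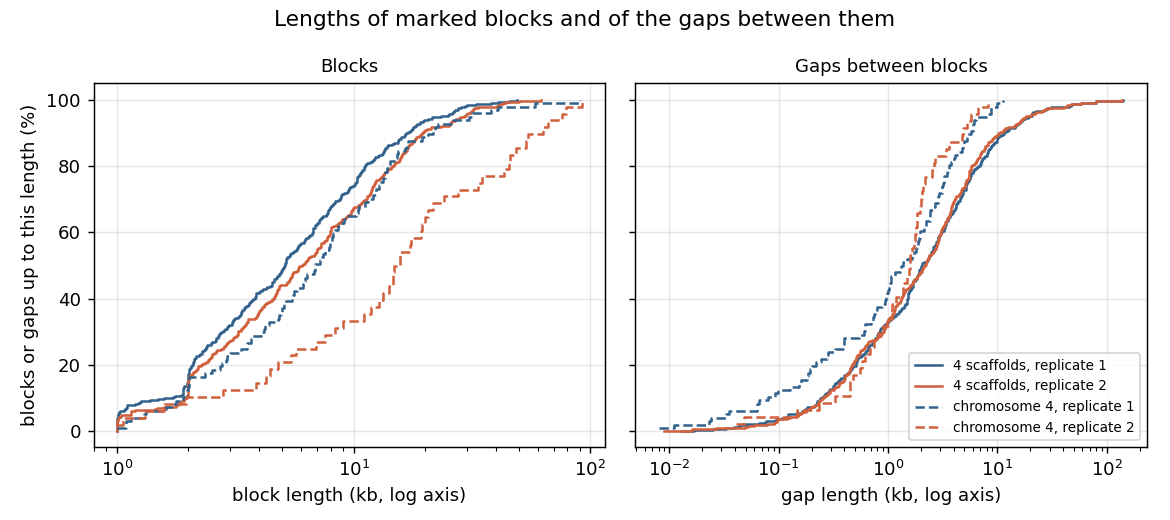
Cumulative share (%) of blocks (left) and of gaps between blocks (right) up to a given length (kb, log axis), for the 4 scaffolds pooled and chromosome 4, in replicates 1 and 2. The gap curves of the scaffolds reach 142 kb in replicate 1 and 137 kb in replicate 2, and those of chromosome 4 end at 11.4 and 8.16 kb.

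Chromosome 4, the small chromosome that is also rich in heterochromatin, was covered more densely and interrupted differently. For replicates 1 and 2, clusters held 57.9% and 63.4% of the scaffolds' bases, against 74.7% and 83.8% on chromosome 4. Their longest internal gaps were 142 and 137 kb, against 11.4 and 8.16 kb on chromosome 4. Gaps of at least 10 kb numbered 53 and 41 on the 5.65 Mb of scaffolds, against 1 and 0 on the 1.35 Mb of chromosome 4. These counts leave out the ends of sequences, where chromosome 4 had its long unmarked stretches of 53.5 and 73.6 kb. With ends counted, stretches of at least 50 kb that neither replicate marked took up 7.79% of the scaffolds and 9.40% of chromosome 4. Median block lengths were 5123 and 6000 bp on the scaffolds and 6902 and 15248 bp on chromosome 4. Gaps of replicate 1 that replicate 2 covered fully were 23.8% of gaps on the scaffolds and 55.2% on chromosome 4. The difference in internal gaps was much larger than the spread between replicates, but no test of it was run.

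The 1 Mb at the centromere end of the arms to which the scaffolds were assigned gave values on both sides of those of the scaffolds. For replicates 1 and 2, 2LHet stood at 51.7% and 56.8% of its bases, against 76.8% and 80.4% for the last 1 Mb of 2L. 3LHet stood at 56.96% and 62.98%, against 68.2% and 72.8% for the last 1 Mb of 3L. 3RHet stood at 60.3% and 65.1%, against 23.3% and 35.8% for the first 1 Mb of 3R. XHet stood at 52.5% and 60.2%, against 53.7% and 61.4% for the last 1 Mb of X, which is within the spread between replicates. Long gaps were present on the scaffolds and in the arm sequences alike. On 3RHet the longest internal gap was 85.7 kb in replicate 1 and 85.5 kb in replicate 2, against 146 and 143 kb in the first 1 Mb of 3R. On 3LHet it was 142 and 137 kb, against 25.7 and 25.6 kb in the last 1 Mb of 3L.

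Most of the sequence that neither replicate marked lay in a limited number of long runs. In all, 2.02 Mb (35.8%) of the scaffolds lay outside the clusters of both replicates, against 80.1% of the bases of all 14 sequences. On the scaffolds this sequence formed 378 runs with a median length of 2234 bp. Of these, 102 runs were at least 5 kb long and held 1583 kb, or 28.0% of the scaffolds and 78.3% of the shared unmarked bases. Runs of at least 20 kb numbered 18 and held 837 kb, and 5 runs of at least 50 kb held 440 kb. By scaffold there were 49 runs of at least 5 kb on 3LHet, 45 on 3RHet, and 4 each on 2LHet and XHet. They took up 27.3% of 3LHet, 27.2% of 3RHet, 34.9% of 2LHet and 36.0% of XHet. Of the 102 runs, 62 also held no base of the combined list, and none was covered by it at more than 6.93%. On chromosome 4, 5 runs of at least 5 kb held 68.5% of its shared unmarked bases. Runs of this kind were not counted over all 14 sequences.

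The longest shared unmarked stretch lay near the start of 3LHet, at 24319 to 161344 (137 kb). On that scaffold it was followed by 79.4 kb at 2294247 to 2373608 and 43.3 kb at 1446943 to 1490219. On 3RHet the longest lay at 444335 to 529883 (85.5 kb), 308916 to 366998 (58.1 kb) and 2384316 to 2431600 (47.3 kb). On 2LHet a single stretch at 53169 to 132718 (79.6 kb) made up 21.6% of the scaffold and 50.3% of its shared unmarked bases. It was followed by 20.3 kb at 215556 to 235884 and by 18.96 kb at the start of the scaffold, from 1 to 18963. On XHet the longest lay at 88288 to 132003 (43.7 kb, 21.4% of the scaffold), with 15.0 kb at its end, from 189103 to 204112, and 7.61 kb at 32682 to 40294. Of these 12 stretches, 7 held no base of the combined list, and the largest share it covered was 1.45%, at the end of XHet. Genes, repeats and undetermined bases within them were not analysed here, and whether sequencing reads could be placed in them was not tested.

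Most borders of these stretches lay close together in the 2 replicates. Over 201 borders of shared unmarked stretches of at least 5 kb, not counting scaffold ends, the gap edges of the 2 replicates lay a median of 167 bp apart. The distance was at most 500 bp at 139 borders (69.2%) and at most 100 bp at 68, while it was 2 kb or more at 35. On 2LHet all 7 borders agreed within 406 bp. On 3RHet 69 of 90 agreed within 500 bp, and on 3LHet 60 of 97 did. On XHet 3 of 7 did. The widest offset of all, 51052 bp, was there, between gaps that ended at 132040 in replicate 1 and 80988 in replicate 2. That replicate 1 gap took in 2 shared stretches that blocks of replicate 2 kept apart. Wide offsets thus include gaps split in 1 replicate only, besides shifted borders, and the kinds were not counted separately. The 3RHet gap over 444335 to 529883 was 85746 bp long in replicate 1 and 85549 bp in replicate 2. The 2LHet gap over 53169 to 132718 was 79612 bp and 79580 bp. On 3LHet the longest gap was 142027 bp in replicate 1 and 137026 bp in replicate 2, and it ended at 166118 in replicate 1 but at 161344 in replicate 2.

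**Figure D4:**
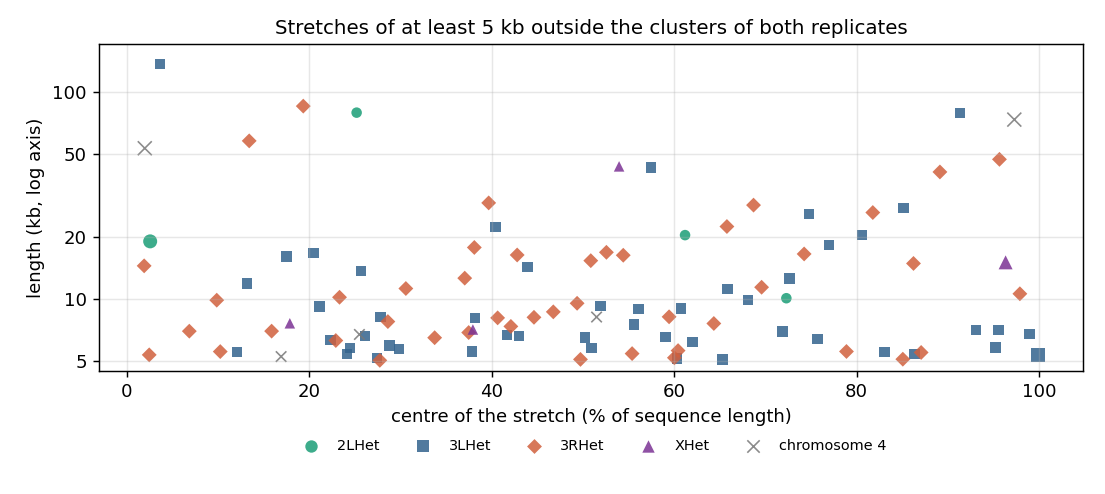
Length (kb, log axis) against centre (% of sequence length) of each stretch of at least 5 kb outside the clusters of both replicates, for the 4 scaffolds and chromosome 4. Larger markers stand for stretches that reach an end of their sequence. The 5 stretches of at least 50 kb on the scaffolds are internal, and both of those on chromosome 4 are at its ends.

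Between these long stretches the scaffolds were marked densely. The shared unmarked runs of at least 5 kb divided the scaffolds into 103 domains with a median length of 27.4 kb, covering 4063 kb in all. Within the domains 80.5% of bases were in clusters in replicate 1 and 88.1% in replicate 2. Leaving out long unmarked runs raises the share by construction, so this is a description of the remainder. The longest domain was 200 kb on 3LHet, at 764795 to 964379, covered at 72.8% and 79.8%. A 150 kb domain at 1129408 to 1279648 was covered at 81.2% and 88.6%, and one of 145 kb at 161345 to 306197, beyond the longest unmarked stretch, at 81.98% and 85.7%. On 3RHet the longest domain was 120 kb, at 2264237 to 2384315, covered at 87.5% and 89.99%. Of the 103 domains, 28 were at least 50 kb long, and each of those was covered at no less than 64.7% in replicate 1 and 73.3% in replicate 2. At the other extreme, 17 domains were shorter than 5 kb, 9 on 3LHet and 8 on 3RHet.

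The longest runs marked without a break in both replicates were spread over the scaffolds. On 3LHet they were 49.2 kb at 2445154 to 2494377, 49.1 kb at 199389 to 248476 and 45.1 kb at 908301 to 953447. On 3RHet they were 40.7 kb at 55 to 40741, 38.2 kb at 178171 to 216388 and 33.5 kb at 2279400 to 2312852. XHet had 32.8 kb at 154050 to 186873, 18.3 kb at 623 to 18903 and 17.5 kb at 42478 to 59960. On 2LHet the longest were 18.6 kb at 179774 to 198362, 12.2 kb at 242519 to 254721 and 11.4 kb at 19370 to 30731. Each of the 12 was a single cluster, or part of one, in both replicates. The combined list met each of them with a single cluster and covered it by at least 99.9%.

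Coverage along the long scaffolds varied without a steady trend from end to end. In full stretches of 250 kb on 3LHet it was lowest in the first, with 37.5% in replicate 1 and 39.3% in replicate 2, and highest from 750001 to 1000000, with 69.5% and 75.6%. On 3RHet the first 250 kb was the most densely covered, with 75.5% and 81.1%, and the next, from 250001 to 500000, the least, with 36.97% and 42.1%. The stretch from 1750001 to 2000000 reached 73.6% and 79.1%. The lowest and the highest stretch of each scaffold were the same in both replicates, and replicate 2 was higher in every one of these stretches, by 1.75 to 10.4 percentage points.

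The ends of the scaffolds differed. On 3RHet marking began at base 17 in replicate 1 and 55 in replicate 2, and on XHet at 623 and 587. On 3LHet it began at 5760 and 4576, and on 2LHet at 19370 and 18964. At the far end clusters reached the last base of 2LHet in both replicates and of 3RHet in replicate 2. As deposited, these clusters ran past the sequence and were trimmed. The part past the end was 96 and 162 bp on 2LHet for replicates 1 and 2, and 883 bp on 3RHet. On 3RHet the last 1402 bp were free of clusters in replicate 1. On 3LHet the last 8524 bp in replicate 1 and 5358 bp in replicate 2 were free of clusters, and on XHet the last 17239 and 15010 bp.

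Coverage along 2LHet was uneven. In replicates 1 and 2 the stretch from 50001 to 100000 was covered at 6.34% and 6.28%, and that from 100001 to 150000 at 19.8% and 20.1%. From 150001 to 200000 the shares were 92.3% and 94.9%. The replicates stood apart at the far end, where the last 18.9 kb had 49.1% of bases in clusters in replicate 1 and 81.7% in replicate 2.

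On XHet the shared unmarked runs of at least 5 kb left 4 domains. The first block began at 623 in replicate 1 and 587 in replicate 2. The domain at 132004 to 189102 (57.1 kb) was the longest and was covered at 85.98% and 90.2%. Its first blocks lay at 132041 to 138759 and 141951 to 147714 in replicate 1, and in replicate 2 at 132004 to 138797 and 141949 to 147753. Replicate 2 alone had further blocks at 80989 to 84960 and 85367 to 88287, with scores of 1.63 and 1.12, the lowest of its XHet clusters. The combined list held the second of these but not the first. Because of them the longest gap of XHet was 58.2 kb in replicate 1 and 43.7 kb in replicate 2.

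Clusters on the scaffolds had high scores within their lists. The score is the authors' own value per cluster, on a scale that is not stated, and is used only within a list or as a rank. In replicate 1, 419 of 432 clusters (96.99%) on the scaffolds scored at or above the list's median of 1.37, and in replicate 2, 385 of 388 (99.2%) at or above its median of 1.42. By construction about 50% of all clusters do so. Their own medians were 2.42 and 3.20. On chromosome 4 the corresponding shares were 42.3% and 89.6%. Among the top 10% of each list the scaffolds held 57 clusters (13.2% of theirs) in replicate 1 and 72 (18.6%) in replicate 2. By scaffold the share in the top 10% was 10% and 43.5% on 2LHet for replicates 1 and 2, 10.4% and 12.97% on 3LHet, and 16.6% and 22.2% on 3RHet. Of the XHet clusters 1 of 8 and 0 of 9 were in it. In replicate 1 the scaffolds other than 3RHet were thus near the share of the whole list, 10.6% with ties, although nearly all of their clusters lay above the list's median.

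**Figure D5:**
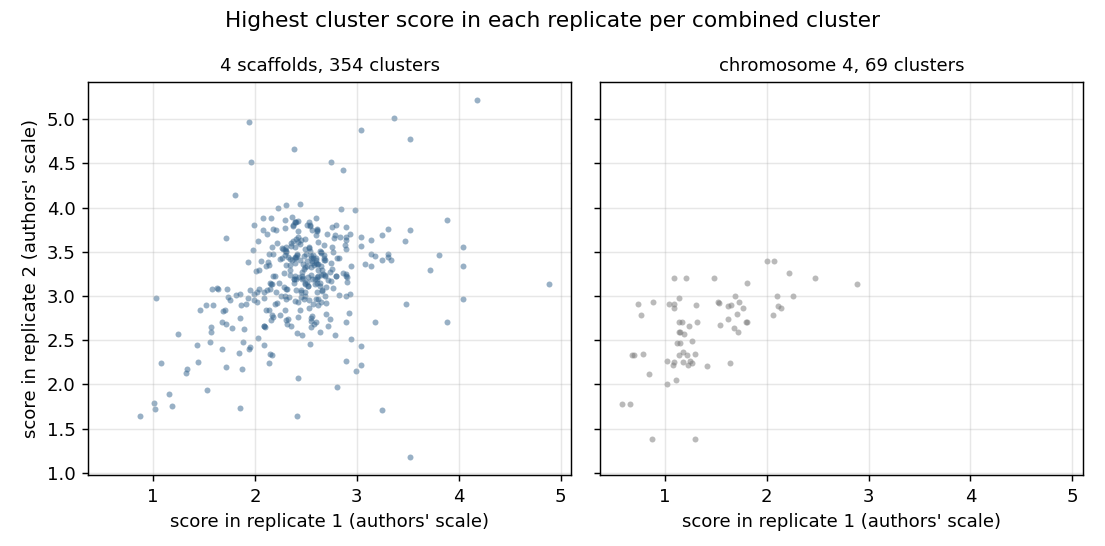
Highest score among the replicate 2 clusters (vertical axis) against that among the replicate 1 clusters (horizontal axis) that meet each combined-list cluster, on the authors' unstated scale, for the 4 scaffolds (left, 354 clusters) and chromosome 4 (right, 69 clusters). Most scaffold points lie in 1 dense cloud, with a Spearman correlation of 0.304, against 0.534 on chromosome 4.

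The order of scores on the scaffolds agreed only weakly between the replicates. Across the 354 combined-list clusters on the scaffolds that both replicates met, the highest scores in the 2 replicates had a Spearman correlation of 0.304. It was 0.271 across 164 clusters on 3LHet, 0.241 across 160 on 3RHet and 0.222 across 24 on 2LHet. Across 69 clusters on chromosome 4 it was 0.534, and across 3387 on the other 10 sequences 0.877. The scores of the scaffold clusters spanned a narrow part of each list, with a middle 50% of 2.17 to 2.68 in replicate 1, and of 2.91 to 3.51 in replicate 2, against 0.842 to 2.25 and 1.097 to 2.88 on the other sequences. The middle 50% on chromosome 4 was 1.09 to 1.69 in replicate 1 and 2.34 to 2.91 in replicate 2. Whether the spread of scores bears on the correlations was not tested. Several combined-list clusters can also meet the same replicate cluster. These correlations are across clusters within a pair of lists, and their difference was not tested. Score and length of the pooled scaffold clusters were also nearly unrelated. Their Spearman correlation was -0.11 over 432 clusters in replicate 1 and 0.0758 over 388 in replicate 2. By scaffold it ran from -0.162 on 3LHet to 0.119 on XHet in replicate 1. In replicate 2 it ran from -0.21 on 2LHet to 0.7 on XHet, with 9 clusters. On the other 10 sequences together it was 0.214 and 0.266. Over the 97 and 48 clusters of chromosome 4, which is among them, it was 0.616 and 0.673.

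The lowest score of the entire replicate 1 list, 0.258 among 4685 clusters, belonged to a 1889 bp cluster on 3RHet at 787756 to 789644. It was singled out after its value was seen. Its neighbours at 779313 to 786969 and 791650 to 794774 scored 2.41 and 0.869. Replicate 2 had a single 15508 bp cluster over the place, at 779195 to 794702, with a score of 1.64, at or above that of 55.6% of the clusters in that list. The combined list had a cluster at 779230 to 791194 with a score of 0.66, its lowest on 3RHet.

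The combined list followed the shared map closely on the scaffolds. It held 394 blocks that covered 62.2% of them. Of its bases, 91.9% lay in clusters of both replicates and 0.501% in those of neither, against 81.3% and 2.54% on the other 10 sequences. It contained 99.9% of the bases that both replicates covered on the scaffolds. Its longest block there, 63.99 kb on 3LHet, was longer than the longest of either replicate. This list covers the same samples and is no separate evidence for the positions.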

How the data were processed

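Per the file headers, the deposited lists give enriched clusters on FlyBase release 5, 1 list for each of the 2 H3K9me2 ChIP samples and 1 for the series. The score of each cluster is the authors' deposited value on an unstated scale. Bowtie 0.12.7 is named in the submitters' processing notes. For the caller, its threshold, the read filters and the read depth, the sources used here give nothing. Start and end positions, the other deposited values, are 1-based, and clusters past a sequence end were trimmed (1 in replicate 1, 2 in replicate 2 and 1 in the combined list on these scaffolds).

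Python 3.11.15 with NumPy 2.4.6 gave the shares of bases, blocks, gaps and windows, and SciPy 1.17.1 the rank correlations. These functions were tested on simulated scaffolds. Regions named by rule were the 3 longest runs covered in both replicates and the 3 longest unmarked in both, per scaffold, and the scaffold ends. Regions, thresholds and alternatives were chosen with earlier results of these data known. Values carry the SD of 2 replicates. A wide call in a list can join neighbouring clusters, which changes block numbers more than covered bases. No genome of release 5 was used here, so no sequence, gene or repeat is reported.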

Additional observations from a re-analysis of the deposited data

How the results depend on the processing

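Of 26 values recomputed with other settings, 19 counted as kept and 7 as moved. The measure was the SD of the replicates, except for the 6 values of same-side windows, where a binomial interval was used that treats neighbouring windows as independent and is too narrow for them, so that count is a convention and no test. Joining clusters within 1 kb gave a median block of 8805 bp, since that choice merges blocks. Windows with no covered base were 33.4% with 1-kb windows and 14.6% with 10-kb windows. With a threshold of 80% of bases, 47.2% of windows passed and 90.7% took the same side in both replicates. Shared unmarked runs held 33.5% of bases with a minimum of 2 kb and 20.9% with a minimum of 10 kb. Windows with no covered base and stretches above a minimum depend on size by construction, and the cause of the lower same-side share was not tested. From single lists, unmarked runs of at least 5 kb held 28.5% without replicate 1 and 33.1% without replicate 2. Other values from a single replicate lie within 1 SD of a mean of 2 by construction and are not counted above. Leaving out undetermined bases was among the planned choices and was not done. No paired analysis was possible because lists exist for the ChIP samples alone. Unknown depth limits every statement about unmarked bases.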
